A study of Mus musculus with 9 samples.

Results

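The genes described here are 40 cell cycle and proliferation genes of mouse muscle, taken from the deposited table by gene symbol. All 40 were found among its 54532 genes. The classes were kept apart by role: 5 genes of the entry into S phase (G1/S), 11 genes of DNA replication and nucleotide supply, and 24 genes of mitosis, which include the proliferation marker Mki67. The rule is a list of symbols and uses no measured value, though it was drawn up with earlier results of these data known.

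The study measured RNA in tibialis anterior muscle, a fast limb muscle at the front of the shin, after muscle injury, to compare regeneration with and without P311. Old P311-/- mice, old wild-type mice of 24 months and young wild-type mice of 4 to 6 months gave 3 libraries each, 9 in all, and injury is what all 3 groups share. No source used here gives an age in months for the P311-/- mice, how the muscle was injured, when it was taken or whether uninjured muscle was included, and P311-/- is labelled as a genotype with no cell type named. No young P311-/- group is analysed here. Replicates carry numbers within a group, and nothing says that they came from different animals, so p-values here measure only the spread between libraries, which may be technical.

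P311 is the protein of Nrep, and its transcript checked the labels. Nrep (chr18:33437019-33464029, GRCm38) had 14.8, 6.37 and 9.72 FPKM in old P311-/- libraries, against 72.4, 71.4 and 83.1 FPKM in old wild type and 86.3, 72.6 and 63.9 FPKM in young wild type. All P311-/- libraries were far below all wild-type libraries, but none was at 0. FPKM is the number of reads scaled to gene length in kilobases and to library size. Recovered reads ranged from 14222204 to 31910890 per library, and a single mitosis gene had between 2 and 658 reads in a library, with a median of 75.

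Cells divide by passing from G1 into S phase, where DNA is copied, and then through G2 into mitosis. D and E cyclins with their kinases inactivate the retinoblastoma protein and release E2F factors, which switch on the replication genes. Later the factor FOXM1 and the MuvB complex, which binds a short promoter element named CHR, raise the mitosis genes. In injured muscle the dividing cells are satellite cells and myoblasts, the precursors of new fibres, together with fibro-adipogenic progenitors, endothelial cells and immune cells, whereas nuclei of mature fibres do not divide. In bulk tissue, fewer dividing cells and less of these RNAs per cell cannot be told apart.

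The promoters of the replication genes and of the mitosis genes held different motifs. RefSeq promoter windows, from 250 bases before to 50 bases after the gene start, were matched by symbol for 31 of the 40 genes: 2 of 5 G1/S genes, 10 of 11 replication genes and 19 of 24 mitosis genes. Motifs were searched on both strands: the E2F site as TTCCCGC, with the variants TTCGCGC, also TTGCCGC and finally TTGGCGC, the CHR as TTTGAA, with the variant TTCGAA, and CCAAT, the box bound by the factor NF-Y. Matches were allowed to overlap one another. The CHR was found in 15 of 19 mitosis genes (78.9%) and in 2 of 10 replication genes (20%), against 21.7% of 27025 genes with a window. An E2F site was found in 6 of 10 replication genes (60%) and in 3 of 19 mitosis genes (15.8%), against 10.9% of all genes. CCAAT was common to both, in 17 of 19 mitosis genes and 8 of 10 replication genes, against 41.1% of all genes. The windows of both matched G1/S genes, Ccne1 and E2f1, held none of these letters. For E2f1 the window, chr2:154569377-154569676 on the minus strand, lies inside the deposited gene, whose 5′ end is at 154569892. The bases before that end were not searched. A match is a description of the letters and not a measured binding site.

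**Figure D1:**
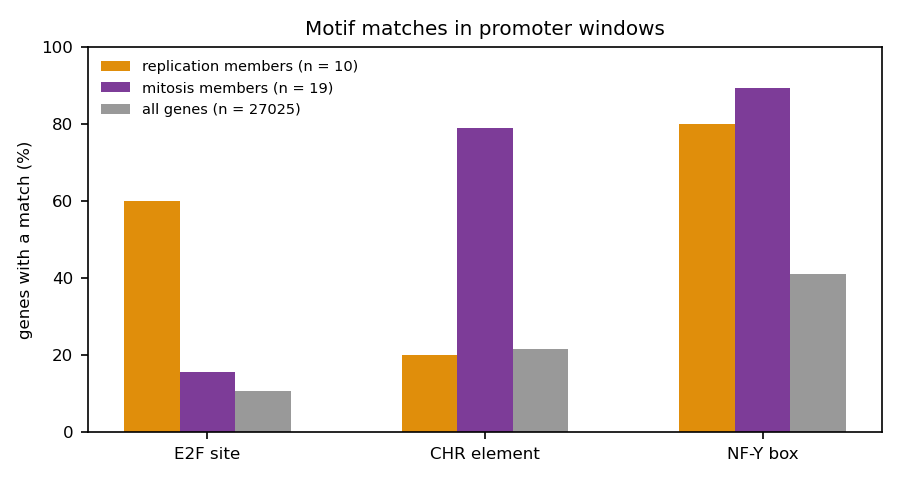
Share of genes (y axis, %) with at least 1 match of each motif (x axis) in the promoter window, for replication genes (10 matched), mitosis genes (19 matched) and all 27025 genes with a window. The CHR bar is highest for mitosis genes at 78.9% and the E2F bar is highest for replication genes at 60%, whereas CCAAT is high in both.

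To show what these windows look like, 3 mitosis genes are given first, with matches of the CHR and of CCAAT in capitals, and then 3 replication genes, with matches of the E2F site and of CCAAT in capitals. Each sequence runs 5′ to 3′ along the gene's own strand and is credited to RefSeq on GRCm38.p6. The windows are Cdc20 chr4:118437294-118437593 on the minus strand, Top2a chr11:99024140-99024439 on the minus strand, Ccnb2 chr9:70421505-70421804 on the minus strand, Mcm5 chr8:75109259-75109558 on the plus strand, Mcm6 chr1:128359656-128359955 on the minus strand, and Rrm1 chr7:102441445-102441744 on the plus strand.
Cdc20: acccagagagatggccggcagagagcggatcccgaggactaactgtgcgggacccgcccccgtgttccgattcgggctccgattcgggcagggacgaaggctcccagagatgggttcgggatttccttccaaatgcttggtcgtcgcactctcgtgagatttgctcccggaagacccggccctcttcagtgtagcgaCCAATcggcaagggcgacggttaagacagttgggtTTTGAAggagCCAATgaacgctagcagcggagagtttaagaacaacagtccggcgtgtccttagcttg
Top2a: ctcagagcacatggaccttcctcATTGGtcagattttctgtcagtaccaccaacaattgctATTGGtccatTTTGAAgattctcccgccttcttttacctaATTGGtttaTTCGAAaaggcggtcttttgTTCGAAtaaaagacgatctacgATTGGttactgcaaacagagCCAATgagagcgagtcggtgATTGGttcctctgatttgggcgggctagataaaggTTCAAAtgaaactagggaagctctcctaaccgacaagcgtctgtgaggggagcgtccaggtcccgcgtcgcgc
Ccnb2: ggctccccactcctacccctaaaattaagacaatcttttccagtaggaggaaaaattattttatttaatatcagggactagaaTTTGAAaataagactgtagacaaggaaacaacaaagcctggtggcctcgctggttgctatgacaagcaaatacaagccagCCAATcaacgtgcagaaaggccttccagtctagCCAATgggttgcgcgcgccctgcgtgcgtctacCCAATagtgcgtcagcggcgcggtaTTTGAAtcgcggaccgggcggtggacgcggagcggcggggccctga
Mcm5: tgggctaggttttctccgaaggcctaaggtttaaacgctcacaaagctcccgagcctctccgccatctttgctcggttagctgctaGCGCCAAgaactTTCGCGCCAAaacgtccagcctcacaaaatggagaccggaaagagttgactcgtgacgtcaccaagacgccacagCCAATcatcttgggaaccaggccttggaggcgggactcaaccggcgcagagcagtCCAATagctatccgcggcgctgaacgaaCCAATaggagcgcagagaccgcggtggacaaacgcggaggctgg
Mcm6: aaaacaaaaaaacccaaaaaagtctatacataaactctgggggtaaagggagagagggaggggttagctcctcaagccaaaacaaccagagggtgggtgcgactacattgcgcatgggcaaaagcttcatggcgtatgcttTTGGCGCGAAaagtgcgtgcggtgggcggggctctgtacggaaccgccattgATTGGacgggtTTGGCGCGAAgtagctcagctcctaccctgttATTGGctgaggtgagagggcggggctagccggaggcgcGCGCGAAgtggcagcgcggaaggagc
Rrm1: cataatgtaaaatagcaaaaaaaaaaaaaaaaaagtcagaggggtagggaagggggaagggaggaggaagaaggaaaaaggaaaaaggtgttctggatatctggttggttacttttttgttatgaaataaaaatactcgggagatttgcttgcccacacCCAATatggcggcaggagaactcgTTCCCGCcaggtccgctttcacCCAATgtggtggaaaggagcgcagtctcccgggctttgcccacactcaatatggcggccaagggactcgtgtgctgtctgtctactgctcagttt
The Cdc20 window has 1 CHR, which starts at -18 relative to the gene start, between CCAAT boxes that start at -53 and -8. The Top2a window holds 4 CHR matches and 6 CCAAT boxes, and the Ccnb2 window 2 and 3. In Mcm5 and Mcm6 some E2F matches overlap on opposite strands, so the capitals there run on for 10 bases, while Rrm1 has a single E2F match at -67.

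Levels of these transcripts were low. Pcna, the clamp that holds DNA polymerase on its template, had the highest mean of the 40 genes, 14.7 FPKM over the 9 libraries, and Cenpf, a kinetochore protein, the lowest, 0.195 FPKM. Mean levels of the mitosis genes ran up to 3.30 FPKM, reached by Ube2c, the ubiquitin carrier of the anaphase-promoting complex. A gene was tested when it had at least 0.5 FPKM and 10 reads in at least 3 libraries. This left 36 of the 40 genes, and Bub1, Cenpe, Cenpf and Kif23 were too low to be tested.

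One P311-/- library stood apart from its group in the mitosis genes. The 24 mitosis genes summed to 32.0, 10.8 and 14.5 FPKM in P311-/- replicates 1, 2 and 3, against 21.4, 20.6 and 31.0 FPKM in old wild type and 32.3, 31.0 and 27.4 FPKM in young wild type. P311-/- replicate 1 was thus at the level of young muscle and above all old wild-type libraries, while replicates 2 and 3 were below all 6 wild-type libraries. The replication genes differed less, with sums of 42.8, 29.7 and 33.9 FPKM in P311-/- muscle, 35.5, 38.5 and 42.7 FPKM in old wild type and 37.8, 41.2 and 37.8 FPKM in young wild type. The G1/S genes summed to 11.8, 6.19 and 7.51 FPKM in P311-/- muscle, 8.24, 9.30 and 9.21 FPKM in old wild type and 13.0, 12.1 and 10.3 FPKM in young wild type, and all old wild-type sums were below all young ones.

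**Figure D2:**
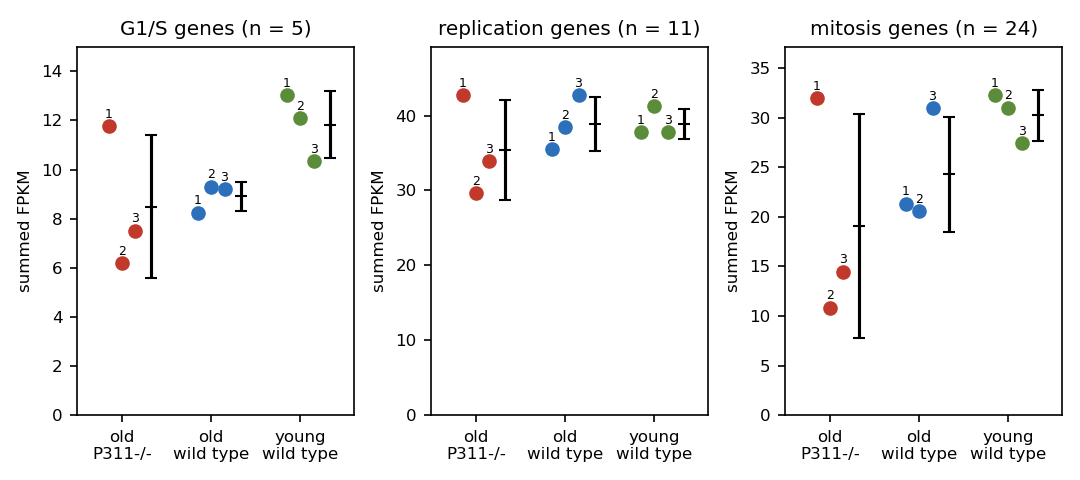
Summed FPKM (y axis) of the G1/S, replication and mitosis genes in each library, numbered by replicate, with the mean and SD of each group beside its points. In the mitosis panel P311-/- replicate 1 sits at 32.0 and replicates 2 and 3 at 10.8 and 14.5, below all 6 wild-type libraries.

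The split within the P311-/- group ran through nearly all mitosis genes. Replicate 1 was above both other P311-/- libraries in 23 of 24 mitosis genes (95.8%), in 7 of 11 replication genes (63.6%) and in 5 of 5 G1/S genes, against 38.2% of all 14233 genes tested. It was at least 2-fold above both in 14 of 24 mitosis genes (58.3%) and in 1 of 11 replication genes (9.09%), against 3.78% of all genes tested. The 24, here and below, include Bub1, Cenpe, Cenpf and Kif23, which were too low to be tested and are not in those shares. Aurka, the kinase of centrosomes and spindle poles, was the mitosis gene that did not follow, with 1.30, 1.50 and 1.23 FPKM in P311-/- replicates 1, 2 and 3. At the other end, Ccnb1, the cyclin that activates CDK1 at the entry into mitosis, was 12.9-fold higher in replicate 1 than in the mean of the other P311-/- libraries, from 100, 2 and 13 reads.

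The other libraries of the group were low as well as unlike replicate 1. P311-/- replicates 2 and 3 were both below all 6 wild-type libraries in 14 of 24 mitosis genes (58.3%), 5 of 11 replication genes (45.5%) and 1 of 5 G1/S genes, against 12.0% of all genes tested. Replicate 2 was the lowest of all 9 libraries in 16 mitosis genes (66.7%), against 16.0% of all genes tested. Replicate 3 was the lowest in 5 (20.8%), against 12.3% of all genes tested. Within a group, the highest over the lowest library spanned a median of 1.62 on the log2 scale for the mitosis genes in P311-/- muscle, 0.75 in old wild type and 0.45 in young wild type, against 0.51, 0.37 and 0.34 for all genes tested. Old wild type had a smaller division of the same kind: its replicate 3 was its highest library in 19 of 24 mitosis genes, against 32.0% of all genes tested.

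**Figure D3:**
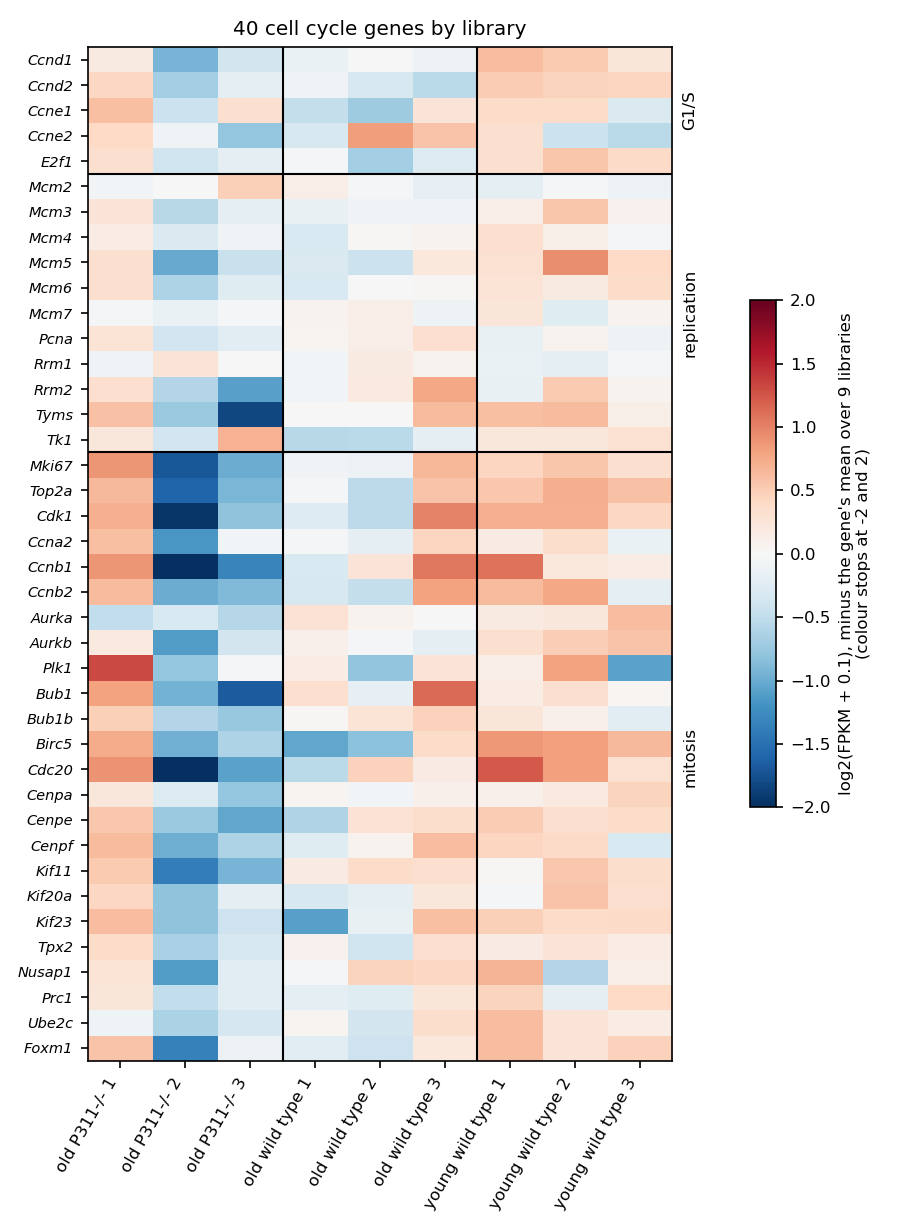
Each row is 1 of the 40 genes and each column 1 library, and the colour gives log2(FPKM + 0.1) minus the mean of that gene over the 9 libraries (red higher, blue lower). The mitosis rows are mostly blue in P311-/- replicates 2 and 3 and mostly red in P311-/- replicate 1, where Aurka and Ube2c are blue, while replication rows such as Mcm2, Mcm7 and Rrm1 stay pale throughout.

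Other features of the P311-/- libraries moved with this division. Macrophage markers, 8 of 8 detected in all libraries, summed to 1170, 500 and 654 FPKM in P311-/- replicates 1, 2 and 3, against 941 to 1301 FPKM in old wild type and 1056 to 1732 FPKM in young wild type; 6 of 8 were highest in replicate 1 within the P311-/- group. T and B lymphocyte markers summed to 10.3, 1.74 and 2.21 FPKM in P311-/- muscle, against 2.35 to 4.19 FPKM in old wild type and 2.85 to 4.95 FPKM in young wild type; 7 of 7 were highest in replicate 1 within the P311-/- group, and Ms4a1, which marks B cells, had 1.56 FPKM there and was listed at 0 in both others. Fibro-adipogenic progenitor markers, 6 of 6 detected, summed to 563, 385 and 405 FPKM in P311-/- muscle, against 460 to 646 FPKM in old wild type and 737 to 758 FPKM in young wild type. Of these, 5 of 6 were highest in replicate 1. Within the P311-/- group the sums of satellite cell, endothelial, neutrophil and erythroid markers were highest in replicate 1 too, so every marker list but that of muscle fibres was highest in the library with the highest mitosis sum. Single markers were less uniform there, with 5 of 8 satellite cell, 3 of 6 endothelial, 2 of 6 neutrophil and 5 of 6 erythroid markers highest in replicate 1. Old wild type repeated this only in part. Its replicate 3, highest in mitosis genes, had its lowest progenitor (460 FPKM), lymphocyte (2.35 FPKM) and neutrophil (7.79 FPKM) sums. The erythroid sum was lowest there too, at 146 FPKM, though replicate 2 was close at 149 FPKM. As in P311-/- replicate 1, the muscle fibre sum of old wild-type replicate 3 (32903 FPKM) was the lowest of its group. Its macrophage sum, 1122 FPKM, lay between the others. Its satellite cell (156 FPKM) and endothelial (54.3 FPKM) sums were the highest of old wild type.

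Muscle fibre markers ran the other way, with 32588, 47067 and 43493 FPKM in P311-/- muscle, against 32903 to 40913 FPKM in old wild type and 31069 to 31710 FPKM in young wild type, so the tissue label was borne out in all libraries. The sum of the satellite cell and myoblast markers, 8 of 8 detected, differed little within the P311-/- group, from 91.8 to 103 FPKM, against 73.3 to 156 FPKM in old wild type and 78.7 to 110 FPKM in young wild type. Single markers of this list went both ways. With P311-/- replicate 1 left out, Vcam1 had a log2 fold change of -0.86 and Cdh15 of 0.66 against old wild type. Endothelial markers, 6 of 6 detected, summed to 38.1 to 49.9 FPKM in P311-/- muscle, 39.3 to 54.3 FPKM in old wild type and 40.8 to 44.4 FPKM in young wild type. Erythroid markers, 5 of 6 detected in all libraries, reached 837 FPKM in P311-/- replicate 1 and 972 FPKM in 1 old wild-type library, within ranges from 300 FPKM in P311-/- muscle, 146 FPKM in old wild type and 183 FPKM in young wild type. Of 6 neutrophil markers Ly6g was at 0 in all libraries, and the sums were 7.06 to 16.1 FPKM in P311-/- muscle, 7.79 to 27.4 FPKM in old wild type and 5.15 to 12.3 FPKM in young wild type. The part of these cell types in the differences of the cell cycle genes was not tested.

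Loss of P311 in old muscle was asked of the contrast between old P311-/- and old wild type. No cell cycle gene passed an adjusted p of 0.05 in limma, where 10 of 14233 genes did (0.0703%). Most mitosis genes had lower means in P311-/- muscle: 18 of the 20 tested had a log2 fold change below 0, with a median of -0.40. The median was -0.08 for the 11 replication genes and 0.16 for the 5 G1/S genes, against -0.004 for all genes tested. At an unadjusted p of 0.05, 1 mitosis gene was lower (Aurka), against 8.54% of all genes, and 1 replication gene was higher (Tk1), against 7.59% of all genes. The voom fit on recovered reads called none of the 36 genes in this or the other comparisons. Over all genes the alternative fits, voom among them, gave 4 to 2720 calls in this comparison. The share for voom alone is not given, so its results here and below have no background of their own beside them.

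Aurka was the 1 cell cycle gene whose P311-/- libraries lay wholly below the old wild-type libraries, a separation seen in 9.39% of all genes, and no gene of the 36 lay wholly above, against 8.64% of all genes. It had 1.30, 1.50 and 1.23 FPKM in P311-/- muscle, against 2.33, 1.98 and 1.88 FPKM in old wild type. Its log2 fold change was -0.58 ± 0.17 (SE), with a limma adjusted p of 0.253. Aurkb, the related kinase of the chromosomal passenger complex, averaged 0.531 ± 0.272 FPKM in P311-/- muscle and 0.677 ± 0.0734 FPKM in old wild type (SD, n = 3 each), which overlapped.

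Of the proliferation markers, Mki67 (chr7:135689784-135716361), the gene of the Ki-67 antigen, had 2.29, 0.30 and 0.546 FPKM in P311-/- muscle, against 1.14, 1.09 and 1.95 FPKM in old wild type. Replicate 1 of the P311-/- group was above all old wild-type libraries and the others below all of them, and the log2 fold change was -0.76 (95% interval -1.99 to 0.47, limma adjusted p = 0.498). Top2a (chr11:98992943-99024189), the topoisomerase that untangles sister chromatids, had 1.68, 0.273 and 0.503 FPKM in P311-/- muscle, against 1.02, 0.690 and 1.58 FPKM in old wild type. Its pattern was that of Mki67, with a log2 fold change of -0.63 (95% interval -1.76 to 0.51).

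The kinase that drives entry into mitosis, Cdk1 (chr10:69335146-69352938), had 1.32, 0.125 and 0.396 FPKM in P311-/- muscle, against 0.626, 0.501 and 1.62 FPKM in old wild type. P311-/- replicate 1 lay within the old wild-type range and the others below it, and the log2 fold change of -0.75 had a 95% interval from -2.13 to 0.64. Its partner Ccnb1 (chr13:100778650-100786570) had 0.832, 0.0265 and 0.102 FPKM in P311-/- muscle, against 0.306, 0.501 and 0.942 FPKM in old wild type. Again P311-/- replicate 1 lay within the old wild-type range and the others below it, and at 2 reads the value of replicate 2 has an exact Poisson 95% interval from 0.003 to 0.096 FPKM, which covers counting error only. Foxm1 (chr6:128362967-128376146), the transcription factor of the mitosis genes, had 0.725, 0.117 and 0.408 FPKM in P311-/- muscle, against 0.376, 0.315 and 0.539 FPKM in old wild type, and its sign changed with the libraries used.

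Further mitosis genes were named for their small p. Kif11, the motor that pushes spindle poles apart, had 1.65, 0.371 and 0.543 FPKM in P311-/- muscle, against 1.27, 1.48 and 1.44 FPKM in old wild type, with a log2 fold change of -0.88 ± 0.42 (SE, limma adjusted p = 0.328). Of its P311-/- libraries 2 were low and 1 was above old wild type. Only Plk1, a kinase of mitotic entry and exit, and Birc5, the survivin subunit of the chromosomal passenger complex, had a fold change above 0. Plk1 averaged 0.840 ± 0.696 FPKM in P311-/- muscle and 0.569 ± 0.233 FPKM in old wild type, and Birc5 0.750 ± 0.568 FPKM in P311-/- muscle and 0.602 ± 0.397 FPKM in old wild type (SD, n = 3 each). Both fold changes turned below 0 without P311-/- replicate 1, at -0.27 for Plk1 and -0.29 for Birc5.

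**Figure D4:**
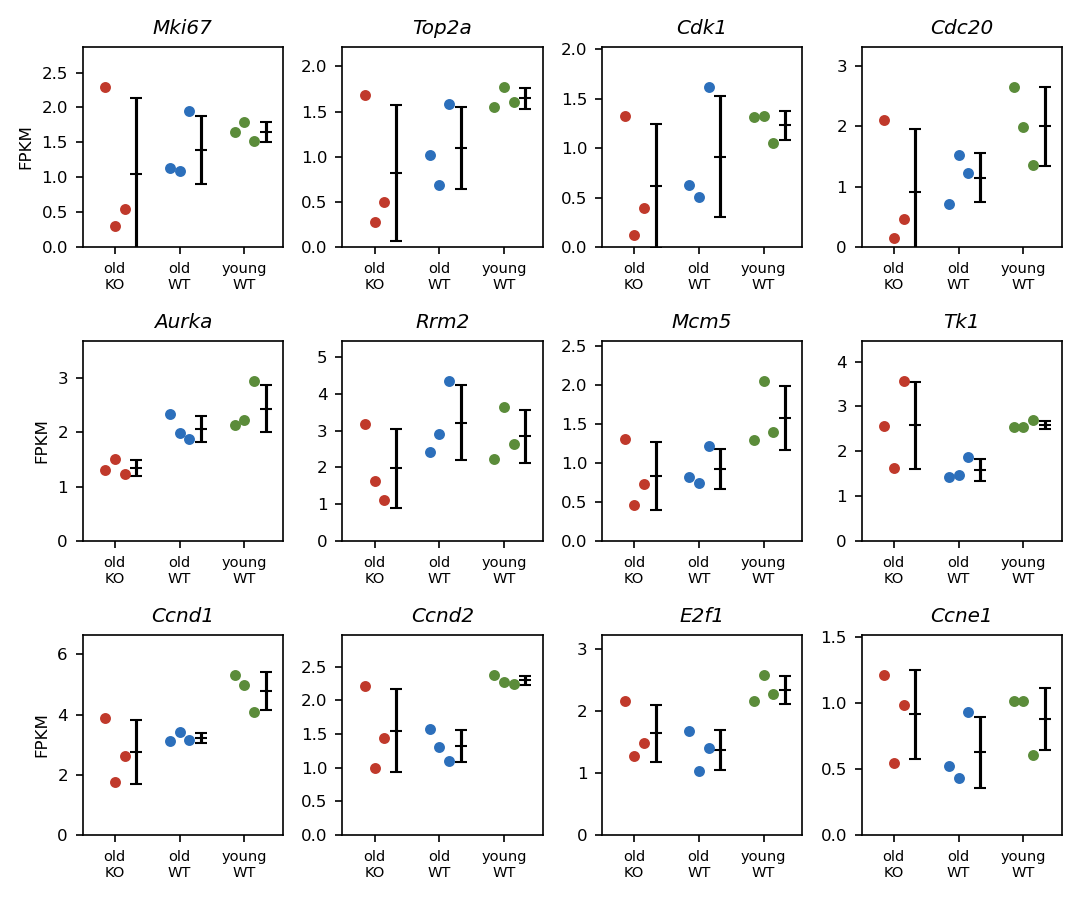
FPKM (y axis) of 12 of the genes in each library, with the mean and SD of each group (error bars end at 0 where they would pass it; KO is P311-/- and WT wild type). For Mki67, Top2a, Cdk1 and Cdc20, 1 P311-/- point is high and 2 are low, whereas for Aurka all 3 P311-/- points, 1.30, 1.50 and 1.23, lie below all wild-type points.

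Among the replication genes, the subunits of the replicative helicase MCM differed little between old P311-/- and old wild-type muscle. Mcm2 (chr6:88883474-88898780) had 1.69, 1.75 and 2.49 FPKM in P311-/- muscle, against 1.95, 1.74 and 1.56 FPKM in old wild type, and the groups overlapped. Mcm5 (chr8:75109569-75128439) had 1.31, 0.462 and 0.729 FPKM in P311-/- muscle, against 0.820, 0.741 and 1.21 FPKM in old wild type, an overlap with the same order of P311-/- libraries as in the mitosis genes. The log2 fold changes of the 6 MCM genes ran from -0.21 for Mcm5 to 0.15 for Mcm2.

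Genes of the clamp and of nucleotide supply spread more widely. Pcna (chr2:132249162-132253314) had 17.6, 11.1 and 12.4 FPKM in P311-/- muscle, against 15.1, 15.8 and 18.4 FPKM in old wild type, with a log2 fold change of -0.29 ± 0.17 (SE, limma adjusted p = 0.421). Rrm2 (chr12:24708241-24714146), the S-phase subunit of ribonucleotide reductase, had 3.18, 1.64 and 1.12 FPKM in P311-/- muscle, against 2.41, 2.90 and 4.35 FPKM in old wild type, with a log2 fold change of -0.76 ± 0.36 (adjusted p = 0.328). In both genes replicate 1 of the P311-/- group lay within the old wild-type range and the others below it. Rrm1, the constant subunit of the same enzyme, had 4.09 ± 0.552 FPKM in P311-/- muscle and 4.11 ± 0.330 FPKM in old wild type (SD, n = 3 each).

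Tk1, the thymidine kinase of the salvage route, was the replication gene with the smallest p and went upwards. It had 2.56, 1.62 and 3.57 FPKM in P311-/- muscle, against 1.44, 1.46 and 1.86 FPKM in old wild type. The groups overlapped at 1 library, and the log2 fold change of 0.61 ± 0.25 (SE) had a limma adjusted p of 0.285. Tyms, thymidylate synthase of the de novo route, had 0.864, 0.285 and 0.0815 FPKM in P311-/- muscle, against 0.545, 0.535 and 0.890 FPKM in old wild type, so the 2 thymidylate genes differed in which P311-/- library was lowest. Tk1 overlaps the gene Afmid on the opposite strand.

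The G1/S genes showed no common direction. Ccnd1 (chr7:144929931-144939925), cyclin D1, had 3.88, 1.75 and 2.63 FPKM in P311-/- muscle, against 3.11, 3.41 and 3.16 FPKM in old wild type. Ccne1 (chr7:38097984-38107534), cyclin E1, had 1.21, 0.546 and 0.982 FPKM in P311-/- muscle, against 0.519, 0.431 and 0.933 FPKM in old wild type. E2f1 (chr2:154559407-154569892), the activating E2F factor, had 2.16, 1.28 and 1.49 FPKM in P311-/- muscle, against 1.68, 1.03 and 1.40 FPKM in old wild type. All of them overlapped, with log2 fold changes of -0.29 for Ccnd1, 0.48 for Ccne1 and 0.23 for E2f1. Ccne2 averaged 1.63 ± 0.666 FPKM in P311-/- muscle and 2.36 ± 0.908 FPKM in old wild type (SD, n = 3 each), opposite to Ccne1 in its means.

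The calls changed with P311-/- replicate 1. When it was left out, 7 cell cycle genes were lower in P311-/- muscle at a limma adjusted p under 0.05 and none was higher, where 6.2% of all genes were lower and 6.97% higher. The 5 mitosis genes were Kif11 (log2 fold change -1.44 ± 0.24, adjusted p = 0.011), Mki67 (-1.51 ± 0.31, adjusted p = 0.0184), Cdc20, the activator of the anaphase-promoting complex (-1.68 ± 0.44, adjusted p = 0.0375), Ccnb1 (-1.99 ± 0.53, adjusted p = 0.0415) and Top2a (-1.27 ± 0.34, adjusted p = 0.044), each with its SE. The 2 replication genes were Rrm2 (-1.15 ± 0.29, adjusted p = 0.0353) and Pcna (-0.48 ± 0.13, adjusted p = 0.0403). The medians without this library were -0.69 for the mitosis genes, -0.29 for the replication genes and -0.12 for the G1/S genes. This library is shown left out because it was high in these same genes. Leaving it out lowers their P311-/- means and narrows their spread. The p-values without it, here and in later comparisons and lists, are therefore not an independent test and describe P311-/- replicates 2 and 3. A fit that kept all libraries and weighted each by how far it strayed from its group gave P311-/- replicates 1, 2 and 3 weights of 0.270, 0.687 and 2.54. It called 7 genes lower, where 9.77% of all genes were lower, and Tk1 higher, where 9.34% of all genes were higher. The weights were set from these same libraries and let replicate 1 count little and replicate 3 most. Calls of the weighted fit, here and below, are therefore not an independent test either and rest mainly on P311-/- replicate 3.

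**Figure D5:**
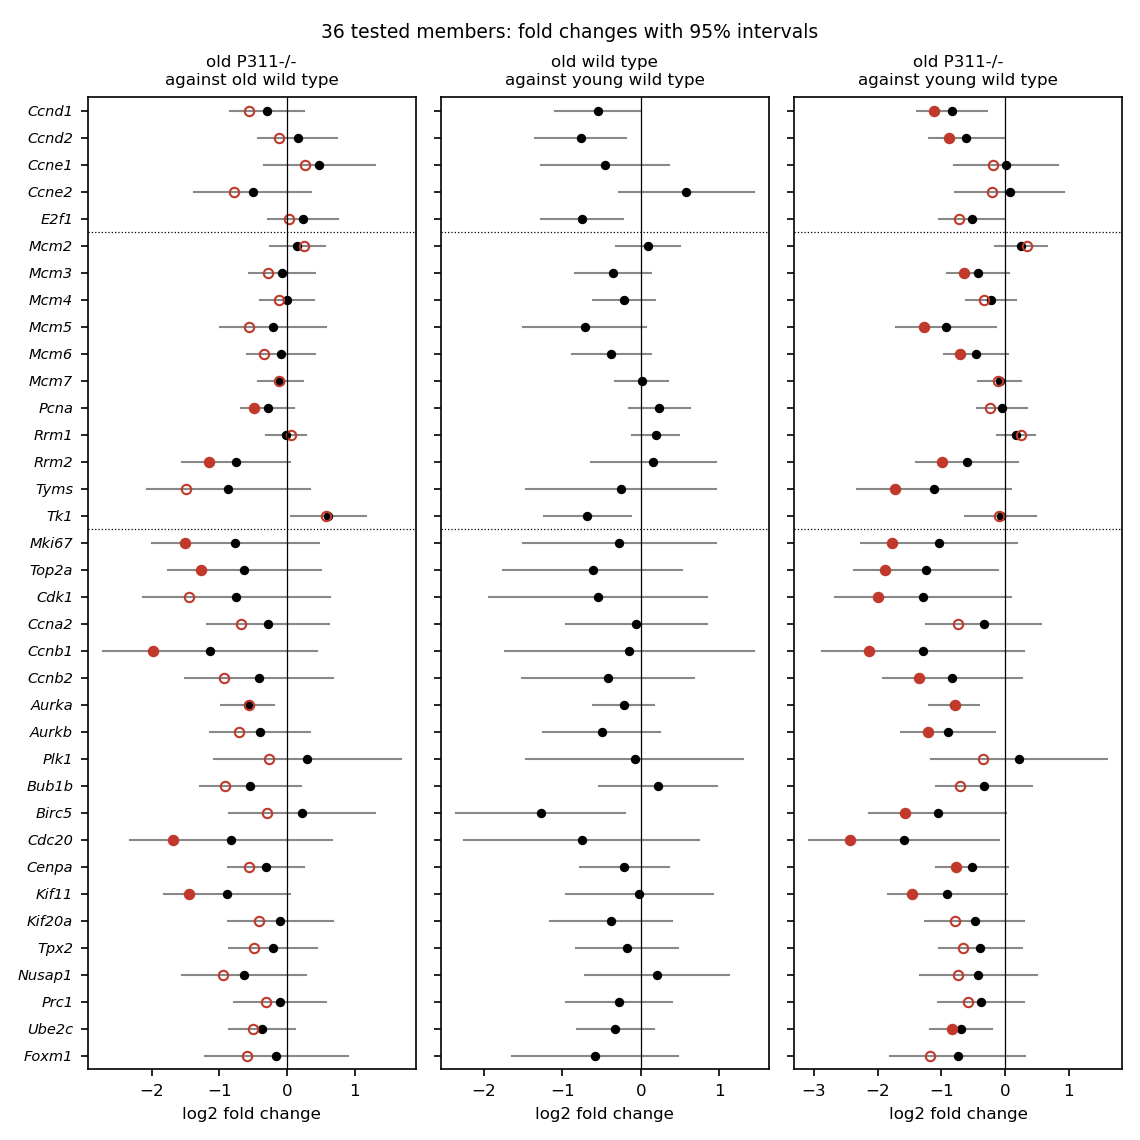
Log2 fold change (x axis) of the 36 tested genes in each comparison, with all 9 libraries (black points with 95% intervals as grey lines) and without P311-/- replicate 1 (red circles, filled where the adjusted p is under 0.05, drawn for the comparisons with P311-/- muscle; an open circle over a black point looks dark inside). Without that library 7 genes are filled against old wild type and 19 against young wild type, all to the left of 0.

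Age was compared between old and young wild-type muscle, a contrast that shares its old libraries with the one above. No cell cycle gene passed an adjusted p of 0.05 in limma, where 5.4% of all genes tested did, 482 higher and 286 lower in old muscle (96 higher and 250 lower with libraries scaled to their total reads). At an unadjusted p of 0.05, 4 genes were lower in old muscle (Ccnd2, E2f1, Tk1 and Birc5) and none was higher, where 12.4% of all genes were lower and 13.9% higher. Old libraries lay wholly below young ones in 11 of the 36 genes, against 18.1% of all genes, and wholly above them in none, against 19.0% of all genes. These 11 were Ccnd1, Ccnd2 and E2f1 of G1/S, Mcm3, Mcm5, Mcm6 and Tk1 of replication, and Aurkb, Birc5, Cenpa and Foxm1 of mitosis. The median log2 fold change was -0.55 for the G1/S genes, -0.21 for the replication genes and -0.28 for the mitosis genes, 18 of 20 of which were below 0, against 0.005 for all genes tested. Scaling to total reads moved the median of all genes by -0.13 in this comparison and by -0.14 between P311-/- and young wild-type muscle, and the medians of the classes with it, to -0.68 for the G1/S genes, -0.34 for the replication genes and -0.40 for the mitosis genes with age.

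The G1/S genes gave the clearest separation with age. E2f1 had 1.68, 1.03 and 1.40 FPKM in old wild type, against 2.16, 2.58 and 2.28 FPKM in young wild type, with a log2 fold change of -0.75 ± 0.23 (SE, limma adjusted p = 0.0835). Ccnd2, cyclin D2, had 1.57, 1.30 and 1.10 FPKM in old wild type, against 2.38, 2.28 and 2.24 FPKM in young wild type, with a log2 fold change of -0.76 ± 0.26 (adjusted p = 0.104). Ccnd1 had 3.11, 3.41 and 3.16 FPKM in old wild type, against 5.31, 4.97 and 4.07 FPKM in young wild type, with a log2 fold change of -0.55 ± 0.24 (adjusted p = 0.191). In all 3 genes every old library was below every young one. Ccne1, by contrast, had 0.519, 0.431 and 0.933 FPKM in old wild type, against 1.02, 1.01 and 0.608 FPKM in young wild type, and Ccne2 averaged 2.36 ± 0.908 FPKM in old and 1.52 ± 0.566 FPKM in young wild type (SD, n = 3 each), with overlap in both.

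Replication genes divided by member. Tk1 had 1.44, 1.46 and 1.86 FPKM in old wild type, against 2.54, 2.53 and 2.69 FPKM in young wild type, with a log2 fold change of -0.68 ± 0.25 (SE, limma adjusted p = 0.124). Mcm5 had 0.820, 0.741 and 1.21 FPKM in old wild type, against 1.29, 2.05 and 1.39 FPKM in young wild type, with a log2 fold change of -0.71 ± 0.35 (adjusted p = 0.226). Neither gene overlapped between the ages. Pcna, with 15.1, 15.8 and 18.4 FPKM in old wild type against 13.1, 15.3 and 13.5 FPKM in young wild type, and Rrm1, with 4.11 ± 0.330 FPKM in old and 3.59 ± 0.210 FPKM in young wild type (SD, n = 3 each), had fold changes above 0. Mcm2 had 1.95, 1.74 and 1.56 FPKM in old wild type, against 1.54, 1.72 and 1.61 FPKM in young wild type, with a log2 fold change of 0.10 that was -0.03 with total-read scaling. Rrm2 had 2.41, 2.90 and 4.35 FPKM in old wild type, against 2.24, 3.65 and 2.63 FPKM in young wild type, and overlapped like Mcm2.

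Among the mitosis genes Birc5 had the largest difference with age. It had 0.339, 0.408 and 1.06 FPKM in old wild type, against 1.53, 1.49 and 1.31 FPKM in young wild type, with a log2 fold change of -1.28 ± 0.48 (SE, limma adjusted p = 0.133). Aurkb, its partner in the chromosomal passenger complex, had 0.751, 0.676 and 0.604 FPKM in old wild type, against 0.896, 1.02 and 1.08 FPKM in young wild type, with a log2 fold change of -0.50 ± 0.33 (adjusted p = 0.364). Every old library was below every young one for both. Foxm1 did not overlap either, with 0.376, 0.315 and 0.539 FPKM in old wild type against 0.746, 0.561 and 0.660 FPKM in young wild type, although its interval ran from -1.64 to 0.47.

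The classical markers were less clear with age, because old replicate 3 was at or near the young level. Mki67 had 1.14, 1.09 and 1.95 FPKM in old wild type, against 1.65, 1.80 and 1.51 FPKM in young wild type. Top2a had 1.02, 0.690 and 1.58 FPKM in old wild type, against 1.55, 1.77 and 1.61 FPKM in young wild type, and Cdk1 had 0.626, 0.501 and 1.62 FPKM in old wild type, against 1.31, 1.32 and 1.06 FPKM in young wild type. In each, 2 old libraries lay below all young ones and the third within or above them. Ccnb1 averaged 0.583 ± 0.326 FPKM in old and 0.636 ± 0.290 FPKM in young wild type (SD, n = 3 each). Bub1b, a spindle checkpoint kinase, and Nusap1, a spindle microtubule protein, had the smallest p of those above 0, with log2 fold changes of 0.21 ± 0.34 and 0.21 ± 0.41 (SE).

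Calls with age depended on how the spread was estimated. A fit of the 6 wild-type libraries alone called Ccnd2 (log2 fold change -0.76 ± 0.17, adjusted p = 0.0338), Tk1 (-0.68 ± 0.16, adjusted p = 0.0351) and Ccnd1 (-0.55 ± 0.14, adjusted p = 0.0419) lower in old muscle, each with its SE, where 4.77% of all genes were lower. Without P311-/- replicate 1, which belongs to neither group but enters the shared spread, Ccnd2 and E2f1 were called lower and no cell cycle gene higher, where 5.07% of all genes were lower and 7.26% higher.

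Old P311-/- muscle was also set against young wild type. This contrast shares its P311-/- libraries with the first comparison and its young libraries with the second, so it is not independent of them, and genotype and age differ together in it. No cell cycle gene passed an adjusted p of 0.05 in limma, where 0.4% of all genes did. At an unadjusted p of 0.05, 8 of the 36 genes were lower and none higher, where 10.6% of all genes were lower and 10.9% higher. P311-/- libraries lay wholly below young ones for Ccnd1, Ccnd2, Aurka, Aurkb and Ube2c, a separation seen in 12.0% of all genes, and wholly above for none, against 11.6% of all genes. The median log2 fold change was -0.77 for the mitosis genes, 19 of 20 of which were below 0, -0.21 for the replication genes and -0.51 for the G1/S genes, against 0.014 for all genes tested.

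Aurka came closest to the threshold, with 1.30, 1.50 and 1.23 FPKM in P311-/- muscle against 2.14, 2.22 and 2.94 FPKM in young wild type, a log2 fold change of -0.80 ± 0.17 (SE) and a limma adjusted p of 0.0779. Ccnd1 had 3.88, 1.75 and 2.63 FPKM in P311-/- muscle, against 5.31, 4.97 and 4.07 FPKM in young wild type, with a log2 fold change of -0.84 ± 0.24 (adjusted p = 0.123). For both genes every P311-/- library was below every young one. Ube2c had 3.01, 2.02 and 2.49 FPKM in P311-/- muscle, against 4.95, 3.82 and 3.54 FPKM in young wild type, with a log2 fold change of -0.69 ± 0.22 (adjusted p = 0.136). Ube2c overlaps Tnnc2, the fast troponin C gene, on the opposite strand, and Tnnc2 was listed at a mean of only 0.941 FPKM in this fast muscle. The sources used here give no strand setting for the counting, so reads of the shared bases cannot be told apart.

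Genes with one high P311-/- library had wide intervals here too. Top2a had 1.68, 0.273 and 0.503 FPKM in P311-/- muscle, against 1.55, 1.77 and 1.61 FPKM in young wild type (log2 fold change -1.24, 95% interval -2.38 to -0.11, limma adjusted p = 0.203). Cdc20 had 2.102, 0.150 and 0.461 FPKM in P311-/- muscle, against 2.65, 1.99 and 1.35 FPKM in young wild type (log2 fold change -1.59, 95% interval -3.08 to -0.09, adjusted p = 0.212). Replicate 1 lay within the young range in both, and replicates 2 and 3 far below it. For Mki67 the log2 fold change was -1.04 (95% interval -2.27 to 0.19), for Cdk1 -1.29 (95% interval -2.68 to 0.09) and for Ccnb1 -1.29 (95% interval -2.87 to 0.30).

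Of the replication genes against young muscle, Mcm5 (log2 fold change -0.92 ± 0.35, limma adjusted p = 0.179) and Tyms (-1.11 ± 0.54, adjusted p = 0.266) had the smallest p below 0, and Mcm2 (0.25 ± 0.18) and Rrm1 (0.18 ± 0.13) above 0, each with its SE. Tk1 averaged 2.58 ± 0.971 FPKM in P311-/- muscle and 2.59 ± 0.0870 FPKM in young wild type (SD, n = 3 each), and its interval ran from -0.63 to 0.49. Ccnd2 averaged 1.55 ± 0.619 FPKM in P311-/- muscle and 2.30 ± 0.0710 FPKM in young wild type, with a log2 fold change of -0.61 ± 0.26 (SE, limma adjusted p = 0.219). Cyclins Ccne1 and Ccne2 had log2 fold changes of 0.02 and 0.07, which were -0.10 and -0.06 with total-read scaling.

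Without P311-/- replicate 1, 19 of the 36 genes were lower in P311-/- than in young wild-type muscle at a limma adjusted p under 0.05 and none was higher. In that fit 9.22% of all genes were lower and 10.3% higher. Here too the p-values are not an independent test, since the library left out was high in these same genes. The 19 were 12 of 20 tested mitosis genes, 5 of 11 replication genes and 2 of 5 G1/S genes. The largest were Cdc20 (log2 fold change -2.44 ± 0.44, adjusted p = 0.00781), Ccnb1 (-2.14 ± 0.53, adjusted p = 0.0248) and Cdk1 (-1.99 ± 0.49, adjusted p = 0.0247) of mitosis, and Tyms (-1.73 ± 0.42, adjusted p = 0.023) and Mcm5 (-1.27 ± 0.31, adjusted p = 0.023) of replication, each with its SE. Ccnd1 (-1.11 ± 0.19, adjusted p = 0.00658) and Ccnd2 (-0.88 ± 0.22, adjusted p = 0.0232) were the G1/S genes. With library weights in place of leaving the library out, 18 genes were lower, where 10.7% of all genes were. That fit also lets P311-/- replicate 1 count little, so its count is not independent of the 19.

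Other genes of the same steps, from lists that hold none of the 40, were read in the same way. Of 43 other mitosis genes 25 were tested. P311-/- replicate 1 was above both other P311-/- libraries in 41 of the 43, those too low to be tested included, and at least 2-fold above both in 24 (55.8%), against 38.2% and 3.78% of all genes tested. None was called between P311-/- and old wild type by limma or voom with all libraries, 1 was lower at an unadjusted p of 0.05 in limma, where 8.54% of all genes were, and 20 of 25 had a fold change below 0 (median -0.29). Pbk, a mitotic kinase, had 1.57, 0.187 and 0.185 FPKM in P311-/- muscle, against 1.34, 1.25 and 1.71 FPKM in old wild type, with P311-/- replicate 1 within the old wild-type range and the others far below it. It gave a log2 fold change of -1.56 ± 0.59 (SE, limma adjusted p = 0.27) with all libraries, and of -2.41 ± 0.25 without P311-/- replicate 1 (adjusted p = 0.00289). Without that library limma called 5 of the 25 lower and none higher, where 6.2% of all genes were lower and 6.97% higher: Pbk, the condensin subunits Smc4 and Smc2, Cdca3 and Racgap1, a subunit of the centralspindlin complex, with Smc2 at an adjusted p of 0.0499. Hjurp, the chaperone of the centromeric histone CENPA, and Smc4, a condensin subunit, followed Pbk in the fit of all libraries, with log2 fold changes of -0.58 ± 0.27 for Hjurp and -0.64 ± 0.30 for Smc4 (SE).

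Pttg1, securin, which holds back the separation of sister chromatids, went against the mitosis genes. It had 13.04, 21.8 and 17.8 FPKM in P311-/- muscle, 20.1, 20.9 and 17.5 FPKM in old wild type and 12.97, 12.1 and 10.7 FPKM in young wild type. Both old groups were above the young one in every library, though P311-/- replicate 1 only narrowly, at 13.04 against 12.97 FPKM. The log2 fold changes were 0.70 ± 0.18 for old against young wild type (SE, limma adjusted p = 0.0541) and 0.53 ± 0.18 for P311-/- against young wild type (adjusted p = 0.155). Against young muscle, other mitosis genes had medians of -0.24 in old wild type and -0.47 in P311-/- muscle, and limma called none of the 25 with all libraries. At an unadjusted p of 0.05 in limma, 2 were lower and 1 higher in old wild type, where 12.4% of all genes were lower and 13.9% higher. In P311-/- muscle 5 were lower and 1 higher, where 10.6% of all genes were lower and 10.9% higher. Voom, like limma without P311-/- replicate 1, called Pttg1 higher in old than in young wild type, where 7.26% of all genes were higher in that limma fit. Without P311-/- replicate 1, limma called 9 of the 25 lower in P311-/- than in young wild-type muscle, where 9.22% of all genes were lower: Pbk, Cdca3, Racgap1, Smc4, Smc2, Kif22, Ect2, Ncaph and Cenpm. Pttg1 alone of the 25 was called higher in that fit (log2 fold change 0.72 ± 0.14, SE, limma adjusted p = 0.0101), where 10.3% of all genes were higher.

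Orc6, a subunit of the origin recognition complex, was the one gene of the lists of other mitosis, replication and G1/S genes and of cell cycle inhibitors that limma called with all libraries. It had 4.14, 3.98 and 4.51 FPKM in old wild type, against 2.92, 2.08 and 2.85 FPKM in young wild type, and rose with age by 0.68 ± 0.16 on the log2 scale (SE, limma adjusted p = 0.0477), a call that voom did not make. In P311-/- muscle it had 3.37, 2.56 and 2.96 FPKM, below all old wild-type libraries, with a log2 fold change against them of -0.50 ± 0.16 (adjusted p = 0.258). Rfc4, a clamp loader subunit, averaged 3.44 ± 0.684 FPKM in P311-/- muscle, 4.96 ± 0.817 FPKM in old wild type and 3.47 ± 0.520 FPKM in young wild type (SD, n = 3 each). Without P311-/- replicate 1 it was called lower in P311-/- than in old wild-type muscle (log2 fold change -0.67 ± 0.18, SE, limma adjusted p = 0.0402), the 1 call among the 19 tested in that contrast. Against young wild type Rfc5 and Uhrf1 were called lower and Rpa2 higher. Over all genes 6.2% were lower and 6.97% higher against old wild type, and 9.22% lower and 10.3% higher against young wild type. These counts are near or below those shares. The 19 tested of 28 other replication genes had medians of -0.28 for P311-/- against old wild type, 0.03 for old against young wild type and -0.18 for P311-/- against young wild type.

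Brakes of the cycle were not called in any comparison by limma or voom with all libraries, with 7 of 7 cyclin-dependent kinase inhibitors tested. At an unadjusted p of 0.05 in limma, 1 of the 7 was lower in each comparison, where 8.54% of all genes were lower between the old groups, 12.4% with age and 10.6% between P311-/- and young wild type, and 1 was higher in P311-/- than in young wild-type muscle, where 10.9% of all genes were. These counts are near the shares over all genes. Cdkn2a, the p16 and ARF gene that marks senescent cells, had 0.329, 0.191 and 0.141 FPKM in P311-/- muscle, against 0.551, 0.721 and 2.19 FPKM in old wild type and 0.394, 0.970 and 0.604 FPKM in young wild type. The P311-/- libraries were below all wild-type libraries, with a log2 fold change of -1.78 ± 0.51 against old wild type (SE, limma adjusted p = 0.253) and of -1.21 ± 0.51 against the young group (adjusted p = 0.213). Every P311-/- library was under the 0.5 FPKM of the filter, so Cdkn2a was tested only because wild-type libraries passed it. Its separation and p-values are therefore not independent of the filter. The highest old wild-type value, 2.19 FPKM, came from 1 library. Without P311-/- replicate 1 Cdkn2a was called lower against old wild type (-2.01 ± 0.56, SE, limma adjusted p = 0.0465), where 6.2% of all genes were lower, and was at an adjusted p of 0.102 against the young group. Cdkn1a, the p21 gene that p53 induces, averaged 23.9 ± 1.58 FPKM in P311-/- muscle, 20.0 ± 8.47 FPKM in old wild type and 14.7 ± 5.46 FPKM in young wild type (SD, n = 3 each). Cdkn1c, the p57 gene, had 26.4, 27.1 and 36.5 FPKM in old wild type, against 58.0, 52.0 and 52.3 FPKM in young wild type, with no overlap (log2 fold change -0.86 ± 0.29, adjusted p = 0.102). Limma without P311-/- replicate 1 called Cdkn1c lower in old than in young wild type, and lower in P311-/- than in young wild-type muscle (-0.79 ± 0.23, SE, adjusted p = 0.0439). In those contrasts 5.07% and 9.22% of all genes were lower.

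Of 15 other G1/S genes 14 were tested and none was called by limma or voom with all libraries. At an unadjusted p of 0.05 in limma, none passed between P311-/- and old wild type, 1 was lower with age, where 12.4% of all genes were, and 2 were higher in P311-/- than in young wild-type muscle, where 10.9% of all genes were. Rbl2, a pocket protein of resting cells, had 4.72, 8.82 and 7.87 FPKM in P311-/- muscle, against 5.19, 5.56 and 4.21 FPKM in old wild type, so the P311-/- libraries with low mitosis genes were the high ones here (log2 fold change 0.47 ± 0.22, SE, limma adjusted p = 0.326; without P311-/- replicate 1 it was 0.74 ± 0.15, adjusted p = 0.0173). Cdk2, the kinase of cyclins E and A, had 1.91, 0.872 and 1.20 FPKM in P311-/- muscle, against 1.59, 1.75 and 2.16 FPKM in old wild type, in the opposite order (log2 fold change -0.49 ± 0.25, adjusted p = 0.359). With P311-/- replicate 1 left out, Cdk2 (-0.77 ± 0.20, SE, limma adjusted p = 0.0397) and Cks1b, a small subunit of cyclin-dependent kinases (-0.52 ± 0.12, adjusted p = 0.0265), were called lower against old wild type. In that contrast 6.2% of all genes were lower and 6.97% higher. Against young wild type that fit called Rbl2 higher and Cdk2, Cdk4, Cdk6 and E2f2 lower, where 10.3% of all genes were higher and 9.22% lower. With age it called E2f2 lower, where 5.07% of all genes were lower and 7.26% higher. Myc, which drives G1, averaged 3.42 ± 0.290 FPKM in P311-/- muscle, 2.76 ± 0.718 FPKM in old wild type and 2.24 ± 0.0978 FPKM in young wild type (SD, n = 3 each), and E2f2 averaged 4.43 ± 0.796, 4.02 ± 0.453 and 5.52 ± 0.220 FPKM in the same groups.

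Some of these values carry the uncertainty of overlapping genes or copies. In all, 10 of the 40 genes overlap a tested gene on the opposite strand, among them Mcm7 with Cops6, Ccna2 with Exosc9, Cdc20 with Elovl1 and Ccnd1 with Oraov1. A further uncertainty holds for the 4 genes with named pseudogenes, which are Pcna, Tyms, Ccnb1 and Ccnb2. Mki67, Top2a, Cdk1, Aurka and Kif11 overlap no tested gene on the opposite strand.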

How the data were processed

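Poly(A) RNA of 9 libraries was sequenced. Per the submitters' processing notes HISAT2 2.2.1, featureCounts 2.1.1 and DESeq2 1.42.0 were among the tools, and the build was mm39, but 53585 of 54495 shared gene identifiers (98.3%) had identical GENCODE M21 positions, so coordinates are given on GRCm38. The deposited values are FPKM, scaled by the authors with library sizes proportional to median-of-ratios size factors. The deposited gene lengths were used as given. Whole reads came back from 100% of the values (tolerance 0.001) on multiplying FPKM by gene length and by a library constant. These reads served for depth, filters and alternatives.

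Groups were compared with limma 3.58.1 (R 4.3.3), using a variance trend and robust moderation, on log2(FPKM + 0.1), which understates fold changes of low genes. All 9 libraries entered 1 fit of group means without a block, since the labels do not say what a replicate number marks. Genes with at least 0.5 FPKM and 10 reads in at least 3 libraries were tested, 14233 in all, with Benjamini-Hochberg adjustment over them and calls at 0.05. The method was tested on simulated data that had the same dispersion for all genes and no library apart from its group. That setting is unlike the P311-/- group here, so it says nothing of calls that turn on P311-/- replicate 1.

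Members and lists were chosen with earlier results of these data known. Genes named with values were Nrep, 12 members always shown, members called, the 2 of smallest p in each class and direction of each comparison, up to 3 genes of smallest p in each other list, the members of highest and lowest mean, and other members by value or count. Ms4a1, Tnnc2, the example promoters and the genes of other lists called without P311-/- replicate 1 were added after values were seen. Alternatives were total-count scaling, a pseudocount of 1, no filter, removal of a length trend, voom on recovered reads, library weights, the 6 libraries compared, a replicate block and leaving out each library. Reads from 1 library are not independent molecules, so Poisson intervals cover counting error only.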

Additional observations from a re-analysis of the deposited data

How the results depend on the processing

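The replicate numbers did not pair the libraries (correlations of same-numbered deviations from -0.10 to 0.15), and with a replicate block no member was called in any comparison, as without it, while over all genes the block gave 4, 0 and 5 calls against 10, 768 and 57 without it (first between the old groups, then with age, then between P311-/- and young wild type). Over the alternatives, calls among all genes ran from 4 to 2720, 0 to 2290 and 4 to 3173, the upper ends with library weights. There were 0 calls among the 36 tested members in each comparison also with total-count scaling, a pseudocount of 1, no filter, the length trend removed and voom. Calls of these fits over all genes lie within the ranges above. Except for total-count scaling with age, they are not given singly here. Library weights gave 8 calls among the 36 between old P311-/- and old wild type, 2 with age and 18 between old P311-/- and young wild type. Over all 14233 genes tested they gave 2720, 2290 and 3173 calls in the same order. The fit of the 6 libraries gave 3 with age, all lower, where 4.77% of all genes were lower. Leaving out 1 library gave 0 to 7, 0 to 2 and 0 to 19 calls in the same order of comparisons, the upper ends without P311-/- replicate 1. Without it, 6.2% of all genes were lower and 6.97% higher between the old groups. The shares were 5.07% and 7.26% with age, and 9.22% and 10.3% between P311-/- and young wild type. Why this library differs was not tested. The median of the replication genes with age was -0.34 with total-count scaling and -0.30 to -0.10 with 1 library left out.

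Genes with a log2 fold change near 0 changed sign, and the cause was not tested. With library weights Birc5 between the old groups was -0.12 and Ccne2 against young was -0.30. With total-count scaling Mcm2 with age was -0.031, and against young Ccne1 was -0.10 and Ccne2 -0.062. With the length trend removed Ccne1 was -0.00798. With 1 library left out, values between the old groups ran from -0.29 to 0.65 for Birc5, -0.60 to 0.37 for Foxm1, -0.014 to 0.25 for Mcm2, -0.56 to 0.11 for Mcm5 and -0.27 to 0.77 for Plk1. With age they ran from -0.51 to 0.17 for Ccnb1, -0.12 to 0.51 for Nusap1 and -0.071 to 0.35 for Rrm2. Between P311-/- and young wild type they ran from -0.20 to 0.31 for Ccne1, -0.20 to 0.38 for Ccne2, -0.24 to 0.085 for Pcna and -0.35 to 0.69 for Plk1.

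Depth limits the lowest mitosis genes, which had as few as 2 reads in a library. The calls in P311-/- muscle changed when P311-/- replicate 1 was left out and when libraries were weighted with all of them kept. Neither is an independent test, since both reduce the part of that same library.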
